A study of Homo sapiens with 8 samples.

Results

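Most proteins of the cytosolic ribosome are encoded by 1 gene each, but a few have a second, paralogous gene, and 6 such paralogs are described here: RPL22L1, RPL26L1, RPL7L1, RPL39L and RPL36AL, which resemble large subunit proteins, and RPS27L, which resembles a small subunit protein. They were taken by symbol from the 19124 genes of the expression files, and all 6 were found. The libraries came from HCT116 and HT29, established human colorectal cancer lines. Both lines received, at 15 nM and with lipofectamine 2000, either a control siRNA (NC) or 1 of 3 siRNAs that target the large subunit genes RPL9, RPL17 and RPL27. RNA was taken after 48 h, in 1 library per line and siRNA, 8 in all. Levels are RPKM (reads per kilobase of transcript and per fixed number of mapped reads) as the authors computed them.

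A paralog of a ribosomal protein can take the place of its parent protein in the ribosome or act apart from it. RPL22 protein is known to hold down the RPL22L1 message, RPL7L1 acts as a factor of large subunit assembly, and RPL39L is known mainly from testis and from cancer cells. The messages of most ribosomal proteins begin with a C followed by a run of pyrimidines, the TOP (terminal oligopyrimidine) motif, through which their translation is controlled as a group.

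To show where this motif stands, the bases around the transcription start are shown first, from RefSeq on GRCh38.p14: 25 bases before the annotated start and 25 from it on, 5′ to 3′. Capitals mark a run of at least 6 C or T that begins with C within 10 bases of the start. RPL22L1 and RPL36AL have such a run, as do the parent genes RPL22 and RPS27. RPL26L1 (at either of its 2 annotated starts, of which the second is shown), RPL7L1 and RPS27L have none, and RPL39L was not examined, since it was matched to no window.
RPL22L1, chr3:170870171-170870220, minus strand: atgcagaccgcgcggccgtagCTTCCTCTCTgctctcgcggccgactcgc
RPL22, chr1:6199571-6199620, minus strand: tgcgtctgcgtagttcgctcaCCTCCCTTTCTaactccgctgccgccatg
RPL36AL, chr14:49620602-49620651, minus strand: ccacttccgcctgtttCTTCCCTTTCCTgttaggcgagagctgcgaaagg
RPL26L1, chr5:172958855-172958904, plus strand: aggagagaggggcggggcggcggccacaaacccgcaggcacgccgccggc
RPL7L1, chr6:42879591-42879640, plus strand: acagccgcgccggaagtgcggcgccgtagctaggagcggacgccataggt
RPS27L, chr15:63157453-63157502, minus strand: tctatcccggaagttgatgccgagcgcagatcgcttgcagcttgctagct
RPS27, chr1:153990737-153990786, plus strand: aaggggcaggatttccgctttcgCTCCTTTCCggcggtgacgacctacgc
The run was found in all 5 parent genes with a window in the table, in 75.6% of the 78 windows of cytosolic ribosomal protein genes and in 19.2% of the 35116 windows of all genes. A match of letters is a description of these windows. The sequences of the pairs differ in how far reads can tell them apart. RPL39L and RPL39 agreed at 94.8% of aligned coding bases, and their full transcripts shared an identical run of 67 bases. RPL36AL and RPL36A agreed at 89.9%, with a run of 63 bases. The coding sequences of the other pairs agreed at 59.2% (RPL7L1 and RPL7) to 84.1% (RPL26L1 and RPL26). Their full transcripts shared no identical run over 20 bases. The values of RPL39L and RPL36AL are therefore uncertain, and RPL36A also shares exons with a read-through transcript.

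Each targeted gene had its lowest level in its own library in both lines, at 26.7% to 38.5% of NC in HCT116 and 13.7% to 18.7% in HT29. Estimated depths were 20.7 to 26.5 M (mega) reads. Of 10 markers of colorectal epithelium all were measured, and only CDX1 stayed under 1 RPKM in both lines. The fibroblast markers DCN and LUM and the endothelial markers PECAM1 and CDH5 stayed under 1 RPKM in all libraries, and the leukocyte marker PTPRC did so in HCT116. The highest fibroblast marker was COL1A1, at 347 to 425 RPKM in HCT116 and 252 to 437 RPKM in HT29, and the highest endothelial markers were VWF in HCT116, at up to 5.70 RPKM, and KDR in HT29, at up to 5.22 RPKM. Summed leukocyte markers were 87.0 to 139.7 RPKM in HCT116 and 1939 to 3062 RPKM in HT29, where LYZ alone gave 1844 to 3001 RPKM. The HT29 NC library stood apart. The deviation of its genes from their mean over all other libraries, of both lines, correlated with transcript length. The Spearman coefficient was -0.61 across 11114 genes, against 0.14 to 0.29 in the other libraries. Transcripts of at most 1177 nt in HT29 NC lay at a median of 0.74 from that mean and those of at least 6724 nt at -1.42 (log2). Every value for HT29 against NC rests on this library, so calls of paralogs and parents there are given also with the trend of each library with length removed.

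Tests used limma on log2(RPKM + 1) over 14281 genes whose mean level reached 1 RPKM, and called a gene at a Benjamini-Hochberg adjusted p under 0.05 over all of them. All 6 paralogs passed that filter. No siRNA was repeated within a line, so the other line or another RPL siRNA stood in as the replicate, and p-values measure only the spread between these libraries. In tests within a line, and of the effect between lines, NC is 1 library per line and adds nothing to that spread. Those p-values measure the spread among the RPL siRNA libraries alone and assume that NC varies like them. Log2 differences below are on the log2(RPKM + 1) scale.

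**Figure D1:**
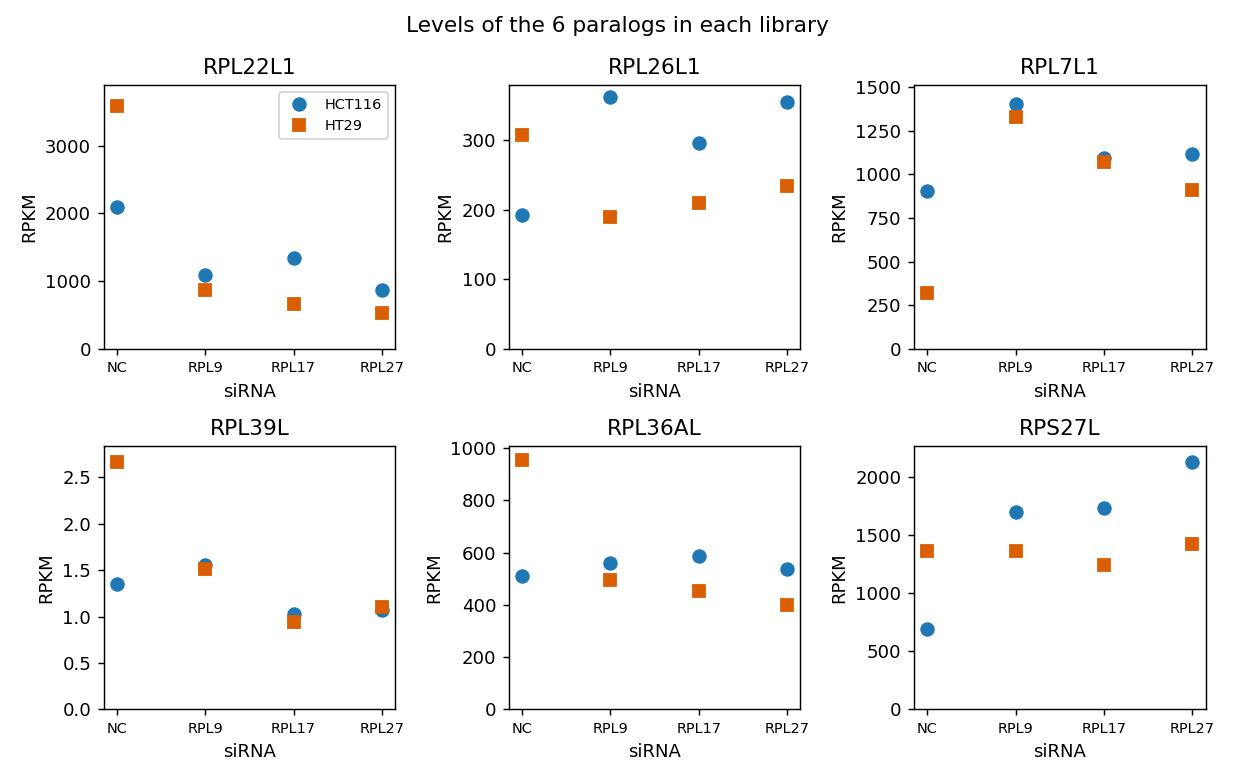
RPKM (vertical axes, linear, from 0) of each paralog under each siRNA, with 1 point per library, circles for HCT116 and squares for HT29. RPL22L1 was highest under NC in both lines, while RPS27L was lowest under NC in HCT116 only.

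RPL22L1 was lower than NC in all 6 RPL siRNA libraries. In HCT116 it stood at 2094 RPKM under NC, 1096 under RPL9 siRNA, 1340 under RPL17 siRNA and 871 under RPL27 siRNA. In HT29 it stood at 3593 RPKM under NC, 863 under RPL9 siRNA, 665 under RPL17 siRNA and 532 under RPL27 siRNA. The NC library was thus the highest in both lines and RPL27 siRNA gave the lowest level in both. The levels were 41.6% to 64.0% of NC in HCT116 and 14.8% to 24.0% in HT29. RPL22, its parent, did not follow it in HCT116: the RPL siRNA libraries held 97.8% to 103.9% of the NC level of 5173 RPKM. In HT29 RPL22 fell from 8962 RPKM under NC to 4913 to 6496 RPKM. The log2 ratio of RPL22L1 to RPL22 changed against NC by -1.23 to -0.64 in HCT116 and by -1.89 to -1.59 in HT29.

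Over both lines the log2 difference between the RPL siRNAs, averaged, and NC was -1.68 for RPL22L1 (SE 0.35, 95% interval -2.53 to -0.83, limma adjusted p = 0.089), which missed the threshold; the comparison called 24 of all genes (0.168%), and none of the 6 paralogs. At an unadjusted p under 0.05 the paralogs numbered 2, RPL22L1 and RPL7L1, against 24.6% of all genes. With the length trend removed RPL22L1 passed, at -1.68 (limma adjusted p = 0.038). Without HT29 NC it passed at -0.95 (limma adjusted p = 0.026), and 3 paralogs and 12.9% of all genes were called; without HCT116 NC it passed at -2.41, and 4 paralogs and 48.6% of all genes were called. Within HT29 alone RPL22L1 fell by 2.41 (SE 0.29, limma adjusted p = 0.00058), or by 2.42 (limma adjusted p = 0.0017) with the length trend removed, in a comparison that called 37.8% of all genes and 3 of the 6 paralogs. Within HCT116 its difference was -0.95 (SE 0.29, limma adjusted p = 0.14). The 2 lines differed by 1.47 (SE 0.41, limma adjusted p = 0.039). That call was lost in 8 of the 15 alternatives run, among them removal of the length trend (1.49, limma adjusted p = 0.079).

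RPL7L1, the assembly factor, was higher than NC in all 6 RPL siRNA libraries. In HCT116 it was at 904 RPKM under NC, 1404 under RPL9 siRNA, 1096 under RPL17 siRNA and 1115 under RPL27 siRNA. In HT29 it was at 321 RPKM under NC, 1331 under RPL9 siRNA, 1070 under RPL17 siRNA and 908 under RPL27 siRNA. The RPL siRNA libraries of the 2 lines overlapped, and the lowest library of all was HT29 NC. RPL7, its parent and a component of the mature large subunit, was at 19131 to 22205 RPKM in the RPL siRNA libraries of HCT116, around the 21444 RPKM of NC. Within HT29 RPL7L1 rose by 1.76 (SE 0.23, limma adjusted p = 0.00075), and its 3769 nt transcript is among the longer ones. With the length trend removed the rise was 1.31 (limma adjusted p = 0.0075) and, with the median length of each gene's coding transcripts used for that trend, 1.03 (limma adjusted p = 0.016). Within HCT116 the difference was 0.40 (SE 0.23, limma adjusted p = 0.36), and over both lines it was 1.08 (SE 0.31, limma adjusted p = 0.13). That value rests on the NC libraries: it was 1.76, and passed, without HCT116 NC and 0.40 without HT29 NC.

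RPS27L, the small subunit paralog, was the only paralog called within HCT116, where 4 of the 6 lay higher than NC on average. Its level there was 697 RPKM under NC, 1698 under RPL9 siRNA, 1738 under RPL17 siRNA and 2130 under RPL27 siRNA. These are 2.44, 2.49 and 3.06 times the NC level. In HT29 it was at 1368 RPKM under NC, 1368 under RPL9 siRNA, 1241 under RPL17 siRNA and 1424 under RPL27 siRNA, so that the NC library lay within the range of the other libraries. The test within HCT116 gave 1.40 (SE 0.16, 95% interval 1.04 to 1.77, limma adjusted p = 0.017), in a comparison that called 166 of all genes (1.16%) and 1 of the 6 paralogs. The call was lost without a mean-variance trend in limma (adjusted p = 0.073) and kept with the length trend removed (1.45, limma adjusted p = 0.016). Within HT29 the difference was -0.03 (SE 0.16, 95% interval -0.39 to 0.34, limma adjusted p = 0.91). The difference between the lines was 1.43 (SE 0.22, limma adjusted p = 0.0039) and was called in all 15 alternatives run, at 1.32 to 2.55. The HT29 value depends on which transcript sets the length: with the 6434 nt transcript of its RefSeq entry RPS27L was called lower, at -1.09 (limma adjusted p = 0.0031), and with the median coding transcript of 808 nt the difference was 0.08 (limma adjusted p = 0.74). RPS27, its parent, was higher under the RPL siRNAs by 0.27 to 0.31 in HCT116 and differed from NC by -0.81 to -0.63 in HT29 (log2). The log2 ratio of RPS27L to RPS27 was higher than under NC in all 6 libraries, by 0.99 to 1.30 in HCT116 and by 0.63 to 0.80 in HT29.

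**Figure D2:**
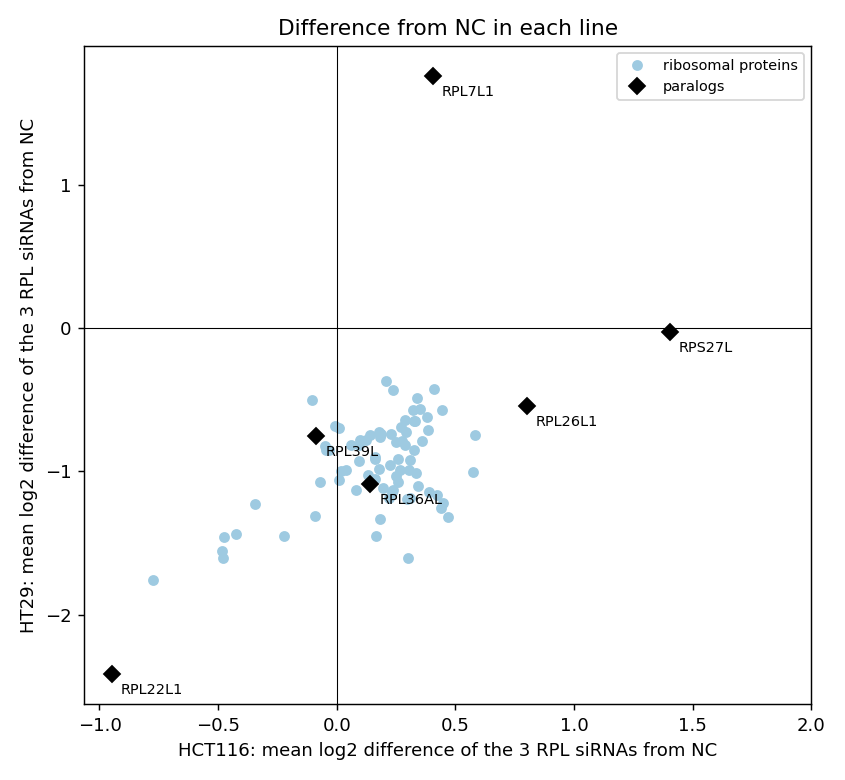
Mean log2 difference of the 3 RPL siRNA libraries from NC in HCT116 (horizontal axis) and in HT29 (vertical axis), for the paralogs (black diamonds) and the ribosomal proteins of both subunits (circles). RPS27L lies at 1.40 in HCT116 and -0.03 in HT29, RPL22L1 is lowest on both axes, and RPL7L1 lies at 0.40 and 1.76.

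RPL26L1 differed from NC in opposite directions in the 2 lines. In HCT116 it was at 193 RPKM under NC and higher in the other libraries, at 363 under RPL9 siRNA, 296 under RPL17 siRNA and 355 under RPL27 siRNA. In HT29 it was at 307 RPKM under NC and lower in the other libraries, at 189 under RPL9 siRNA, 210 under RPL17 siRNA and 234 under RPL27 siRNA. Neither line's difference passed on its own: it was 0.80 in HCT116 (SE 0.19, limma adjusted p = 0.088) and -0.54 in HT29 (SE 0.19, limma adjusted p = 0.058). The difference between the lines passed, at 1.34 (SE 0.27, limma adjusted p = 0.011). With the length trend removed it was 0.70 (limma adjusted p = 0.15), and the HT29 difference turned to 0.04. After quantile normalization and after median-centring RPL26L1 was called lower within HT29, at -0.85 and -0.96. RPL26, its parent, was at 91.6% to 117.7% of NC in HCT116 and at 47.6% to 63.6% in HT29. The log2 ratio of RPL26L1 to RPL26 was higher than under NC by 0.64 to 0.84 in HCT116 and by 0.02 to 0.53 in HT29.

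RPL36AL, which encodes a protein nearly the same as that of RPL36A, kept its ratio to the parent. Its levels in HCT116 were 510 RPKM under NC, 562 under RPL9 siRNA, 588 under RPL17 siRNA and 539 under RPL27 siRNA. In HT29 they were 954 RPKM under NC, 497 under RPL9 siRNA, 455 under RPL17 siRNA and 399 under RPL27 siRNA. Only the HT29 NC library stood clear of the others. Within HT29 RPL36AL fell by 1.09 (SE 0.16, limma adjusted p = 0.0012), and with the length trend removed its difference was -0.51 (limma adjusted p = 0.061). The log2 ratio of RPL36AL to RPL36A differed from that under NC by -0.23 to -0.01 in the 6 libraries.

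RPL39L was near the filter, with a mean of 1.40 RPKM. It was listed at 1.34, 1.56, 1.03 and 1.07 RPKM in HCT116 under NC, RPL9, RPL17 and RPL27 siRNA, and at 2.67, 1.51, 0.943 and 1.10 RPKM in HT29. Its highest value was again in HT29 NC, and no comparison called it as fitted here; without a trend in limma it passed within HT29 (-0.75, adjusted p = 0.044). Its parent RPL39 was at 5004 to 11537 RPKM, and how the authors placed reads that match both genes is not stated. The germline or muscle paralogs RPL10L and RPL3L were lower still, with means of 0.36 and 0.46 RPKM, and were not tested.

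**Figure D3:**
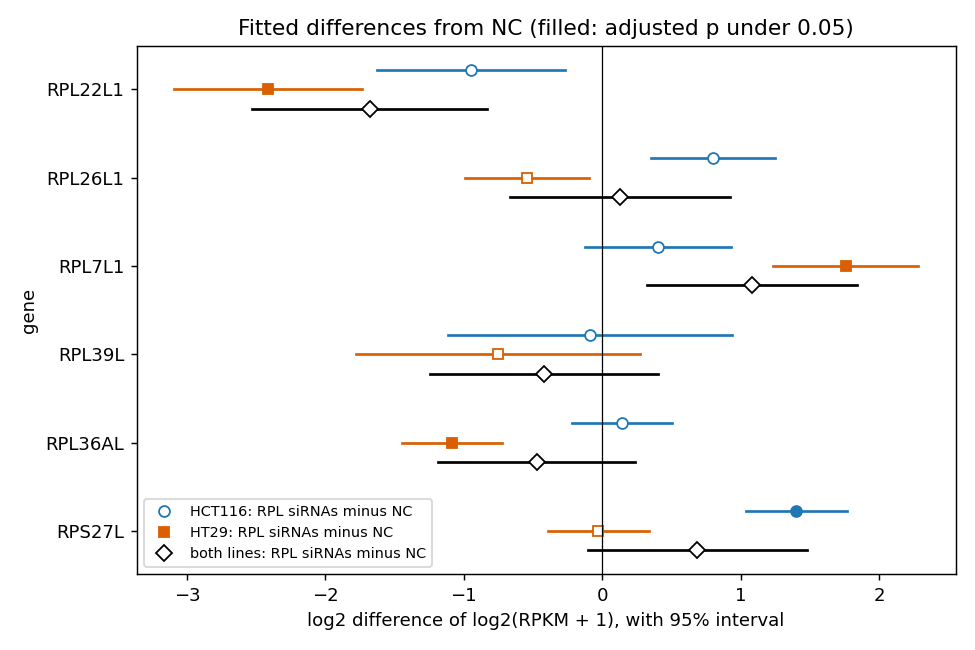
Fitted log2 difference of the RPL siRNAs from NC for each paralog (rows) in HCT116 (circles), in HT29 (squares) and over both lines (diamonds), with 95% intervals. Filled symbols mark an adjusted p under 0.05: RPS27L in HCT116, and RPL22L1, RPL7L1 and RPL36AL in HT29.

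Set beside their parents, the paralogs covered a wider range. In HCT116 the mean log2 differences from NC ran from -0.95 (RPL22L1) to 1.40 (RPS27L) for the paralogs and from -0.05 to 0.29 for the parents. In HT29 they ran from -2.41 to 1.76 for the paralogs and from -0.99 to -0.70 for the parents. All 6 parents were called lower within HT29, against 12.6% of all genes called lower there (25.3% higher), and 0 of 6 were called within HCT116. Among the parents RPS27 (359 nt), RPL39 (401 nt), RPL26 (585 nt) and RPL7 (1101 nt) have short transcripts, while that of RPL22 has 2078 nt. Whether length accounts for the lower values in HT29 was not tested. After removal of the length trend 1 of the 5 parents with a length, RPL22, was called lower there (11.8% of all genes), and with the median coding length 6 of 6 were (15.0%). The paralogs called within HT29 were 1 higher and 2 lower. The parents behaved as the ribosomal proteins did at large, of which they are themselves a part. That likeness is thus partly built in. All 47 large subunit genes lay lower than NC within HT29 (median -0.91), and 43 of them were called. All 32 small subunit genes were called lower there (median -0.995). In HCT116 the medians were 0.20 and 0.23. After removal of the length trend 24 of 43 and 18 of 31 were called lower within HT29, and with the median coding length 41 of 47 and 30 of 32. Over both lines no gene of either subunit list was called, against 0.168% of all genes. At an unadjusted p under 0.05 there were 7 of 47 large and 1 of 32 small subunit genes, against 24.6% of all genes. The large subunit ran from RPL27 (-1.26) and RPL9 (-1.04), both siRNA targets, to RPL14 (-0.07) and RPL27A (-0.07), and the small subunit from RPS9 (-0.84) and RPS29 (-0.65) to RPS26 (-0.08) and RPS4X (-0.01).

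**Figure D4:**
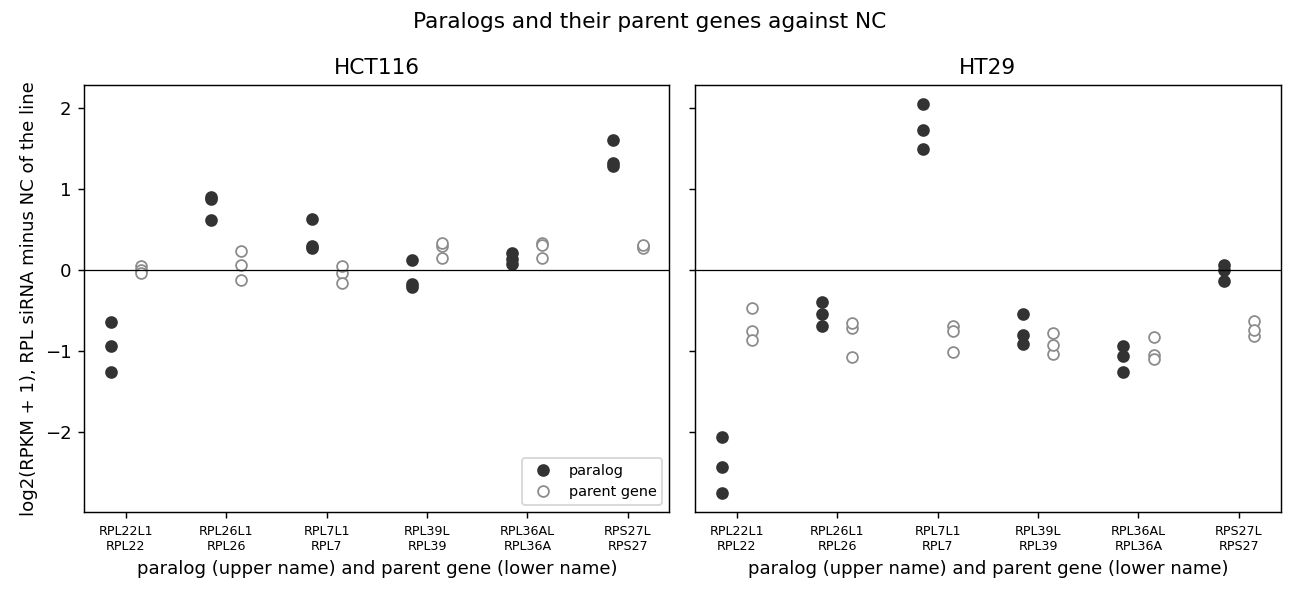
Log2(RPKM + 1) of each RPL siRNA library minus that of NC of the line, for each paralog (filled) and its parent gene (open), with 1 point per RPL siRNA. In HCT116 the parents lie between -0.16 and 0.34, while RPL22L1 lies below and RPS27L above all of them.

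The RPL siRNA effect differed between the lines, by the test of that difference, for 5 of 6 paralogs, all but RPL39L, and for 6 of 6 parents, in a comparison that called 22.9% of all genes. Among the paralogs only RPL7L1 had the higher value in HT29, with a difference of -1.35 (HCT116 minus HT29, SE 0.32, limma adjusted p = 0.021); RPL36AL had the higher value in HCT116 by 1.23 (SE 0.22, limma adjusted p = 0.0069). Under removal of the length trend 1 paralog, RPS27L, kept the call, with 7.49% of all genes called and 0 of 5 parents. With the median coding transcript as the length 3 did, RPL26L1, RPL36AL and RPS27L, with 14.6% of all genes and 3 of 6 parents.

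Among the RPL siRNA libraries, which do not use NC, HCT116 and HT29 were compared with the 3 siRNAs as replicates. HCT116 was higher for 4 of 6 paralogs, against 11.1% of all genes called higher and 0 of 6 parents. RPL22L1 was higher by 0.69 (SE 0.13, limma adjusted p = 0.015), RPL26L1 by 0.68 (SE 0.11, limma adjusted p = 0.011), RPS27L by 0.46 (SE 0.07, limma adjusted p = 0.0073) and RPL36AL by 0.33 (SE 0.08, limma adjusted p = 0.037). For RPL22L1, RPL26L1, RPL36AL and RPS27L alike the RPL siRNA libraries of HCT116 did not overlap those of HT29. The share of all genes without such overlap was not counted, so nothing is read from it. For RPL22L1 the gap was small, from 871 RPKM (HCT116, RPL27 siRNA) to 863 RPKM (HT29, RPL9 siRNA). RPL7L1 differed by 0.14 (95% interval -0.04 to 0.31) and RPL39L by 0.02 (95% interval -0.80 to 0.84). All 4 kept their calls with the length trend removed by either length. The 4 calls became 0 without a filter on low levels (4.02% of all genes called), without a trend in limma (7.15%) and in a fit of all 8 libraries (3.61%), against 22.9% as fitted here. Leaving out 1 library left 1 call without HCT116 RPL17 siRNA or HT29 RPL17 siRNA (8.33% and 8.76% of all genes), 2 without either RPL27 siRNA library (11.6% and 12%) and 4 without either RPL9 siRNA library (15.3% and 16.1%).

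The RPL siRNAs were also set against each other, each against the mean of the other two, with the lines as replicates. No paralog was called in these 3 comparisons, which called 0.707% (RPL9), 0.42% (RPL17) and 1.25% (RPL27) of all genes; at an unadjusted p under 0.05 they held 1, 0 and 3 paralogs, against 20.4%, 18.0% and 18.5% of all genes. RPL7L1 was higher under RPL9 siRNA by 0.39 (95% interval 0.21 to 0.57, limma adjusted p = 0.080), and the RPL9 siRNA library was the highest of its line in both lines. RPL22L1 differed under RPL27 siRNA by -0.49 (95% interval -0.82 to -0.17, limma adjusted p = 0.14), RPL7L1 by -0.27 (95% interval -0.46 to -0.09, limma adjusted p = 0.14) and RPS27L by 0.22 (95% interval 0.05 to 0.39, limma adjusted p = 0.19). With 1 library left out the last ran from 0.13 to 0.31. Against NC each siRNA taken alone called 0 of 6 paralogs too. Those 3 comparisons share the NC libraries and called 0.007% (RPL9), 0.014% (RPL17) and 0% (RPL27) of all genes, against 20.4%, 15.7% and 16.7% at an unadjusted p under 0.05; the paralogs at that level were RPL22L1 and RPL7L1 under RPL9 and RPL17 siRNA and RPL22L1 under RPL27 siRNA.

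The assembly factors RSL24D1, MRTO4 and RSL1D1 also resemble ribosomal proteins. RSL24D1, which holds the place of RPL24 in large subunit precursors, was at 2359 RPKM in HCT116 under NC and at 1559, 1573 and 1571 RPKM under RPL9, RPL17 and RPL27 siRNA. In HT29 it was at 2257, 1442, 1407 and 1484 RPKM in the same order. All 6 RPL siRNA libraries held 62.3% to 66.7% of NC. It fell within HCT116 by 0.59 (SE 0.10, limma adjusted p = 0.044; 0.053 with the length trend removed) and within HT29 by 0.64 (SE 0.10, limma adjusted p = 0.0016; 0.0071 with that trend removed), and over both lines its difference was -0.62 (SE 0.12, limma adjusted p = 0.087). MRTO4, which resembles the stalk protein RPLP0, was at 102.6% to 142.9% of NC in HCT116 and 76.6% to 96.8% in HT29. RSL1D1, a nucleolar protein with a domain like that of RPL10A, was at 133.9% to 145.4% and 107.9% to 114.3%.

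The genes most like each paralog were found by Pearson's r of line-centred log2 levels over the 8 libraries and again over the 7 without HT29 NC; the points share these few libraries and, in the first case, the outlying one. Over 8 libraries they were CENPV (0.994) and COMMD4 (0.990) for RPL22L1, HLA-G (0.993) and MIB2 (0.990) for RPL26L1, and PXN (0.997) and MARK2 (0.996) for RPL7L1. For RPL39L they were VPS29 (0.989) and LCN12 (0.987), for RPL36AL PDHB (0.993) and MRPL12 (0.993), and for RPS27L FAM174A (0.983) and CNTD1 (0.982). Over 7 libraries they were GLUL (0.998) and NARS (0.992) for RPL22L1, STRADA (0.9995) and HLA-G (0.994) for RPL26L1, and TMEM11 (0.990) and CCDC137 (0.989) for RPL7L1. For RPL39L they were TRIT1 (0.991) and HCN2 (0.989), for RPL36AL DBNDD2 (0.992) and STON2 (0.989), and for RPS27L SEMA4G (0.999) and RPP40 (0.998). HLA-G, for RPL26L1, is the only gene among the 2 most like the same paralog both times. All these genes were picked for the highest r among the 14281 tested genes over few libraries. How high r would run without any link was not tested.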

How the data were processed

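RNA sequencing covered 2 cell lines with 4 siRNAs each, 1 library per combination. Libraries were made from total RNA with a TruSeq RNA kit, per the labels' protocols. Per the submitters' processing notes, CASAVA 1.8.2 and TopHat2 2.0.9 were used, with the hg19 genome. The authors deposited RPKM per gene symbol for 19124 genes; their rule for counting reads is not stated. These values behave like sums over exons, so differences are read only for the same gene across libraries. Where levels of different genes are set side by side, as for the markers and the lowest paralogs, the comparison is rough. Depth was estimated from the steps of low values in 1186 single-exon genes, of which 52.9% to 60.8% lay within 0.05 of a whole read, so no count test was made.

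The 14281 genes whose mean level reached 1 RPKM were fitted on log2(RPKM + 1) with limma 3.58.1 (trend) in R 4.3.3, two-sided, with Benjamini-Hochberg adjustment and a threshold of 0.05. Comparisons against NC over both lines used all 8 libraries with terms for line and siRNA. Those within a line, and of the effect between lines, used the 3 RPL siRNAs as replicates in each line. Those among the RPL siRNAs, and of the lines, used the 6 RPL siRNA libraries, since earlier results had shown that HT29 NC stands apart. The settings varied were the pseudocount (0.1, 5), the filter (none, 5 RPKM), quantile normalization, median-centring, removal of the trend with transcript length from each library (spline with 5 degrees of freedom, 13738 genes), limma without trend, an 8-library fit, no term for line, and each library left out. Removal of that trend with the median length of a gene's coding transcripts was added after seeing the data. Lengths and coding sequences came from GENCODE 29 (GRCh38) and start windows from RefSeq (GRCh38.p14); their coordinates were not mixed with hg19. Sequences were aligned with Biopython 1.88.

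The paralogs, the lists (parents, ribosomal proteins of each subunit, assembly factors, cell type markers) and the rule for named genes were chosen with earlier results of these data known. Named were the paralogs, parents, other paralogs and assembly factors, the 2 genes most like each paralog, and the 2 highest and 2 lowest of each subunit list over both lines; 1 further gene list is not reported here. Fits were also run on simulated data with a smaller spread than these data and no outlying library. That run does not show how often calls are right here.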

Additional observations from a re-analysis of the deposited data

Results flagged for a closer look

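The effect of the RPL siRNAs differed between HCT116 and HT29 for 5 of the 6 paralogs by the test of the difference itself (log2 difference from NC in HCT116 minus that in HT29, limma). It was 1.47 for RPL22L1, 1.34 for RPL26L1, -1.35 for RPL7L1, 1.23 for RPL36AL and 1.43 for RPS27L. All 6 parent genes and 22.9% of all genes passed the same test, and every value rests on the 1 NC library of HT29, which stands apart by transcript length. With the length trend removed RPS27L kept the call under both lengths used, RPL26L1 and RPL36AL under the median coding length only, and RPL22L1 and RPL7L1 under neither. The HT29 value of RPS27L itself depended on the length, at -1.09 with the RefSeq length and 0.082 with the median coding length. Of all 15 alternatives run, the call was lost in 8 for RPL22L1, 5 for RPL7L1, 1 each for RPL26L1 and RPL36AL and 0 for RPS27L.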

How the results depend on the processing

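The number of paralogs called over both lines against NC was 0 and became 1 (RPL22L1) with the length trend removed by either length; with 1 library left out it ran from 0 to 4. All genes called there numbered 24, and 10 and 9 with pseudocounts of 0.1 and 5, 6 without a filter, 83 after quantile normalization, 7 after median-centring, 817 and 457 with the trend removed by the RefSeq and by the median coding length, and 12 without limma's trend. Leaving out HCT116 NC gave 6945, leaving out HT29 NC 1838, and leaving out any RPL siRNA library 0. Without the term for line, that is without the pairing of libraries by line, 0 paralogs and 5 genes were called. The single siRNAs against NC kept 0 calls except with 1 library left out, at 0 to 4 for RPL9, 0 to 4 for RPL17 and 0 to 3 for RPL27; these calls arose without HCT116 NC, with 6313 to 6598 of all genes called, or without HT29 NC, with 978 to 2176. In the comparison of lines under RPL siRNAs 4 calls became 0 without a filter, without limma's trend and with 8 libraries, and 1 to 4 with 1 library left out. Within HCT116 1 call became 0 without limma's trend and stayed 1 with each library other than HCT116 NC left out; without HCT116 NC there is no such comparison. Within HT29 there were 3 to 4 calls, not always of the same paralogs: with the RefSeq length trend removed RPL36AL lost its call and RPS27L gained one, RPL26L1 gained one after quantile normalization and median-centring, and RPL39L without limma's trend. For the difference between lines 5 calls became 4 after median-centring, 3 without a filter, 3 without limma's trend, 1 with the RefSeq length trend removed and 3 with the median coding length; with 1 library left out there were 4 to 5. The RPL siRNAs against each other gave 0 calls in every alternative run.

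Directions turned for values that had not passed as fitted here. RPL26L1 over both lines (0.13) was -0.029 after quantile normalization and -0.071 after median-centring. With 1 library left out it ran from -0.54, without HCT116 NC, to 0.80, without HT29 NC, so its direction depends on which NC library is used. RPL26L1 within HT29 was 0.036 with the RefSeq length trend removed. RPS27L within HT29 was 0.082 with the median coding length and -0.070 to 0.029 with 1 library left out; over both lines it was -0.027 to 1.40 with 1 left out. RPL36AL over both lines was -1.09 to 0.14 with 1 left out. RPL39L between lines was -0.14 with 8 libraries. Under RPL9 siRNA against the others, leaving out 1 library gave -0.18 to 0.042 for RPS27L, -0.23 to 0.16 for RPL26L1 and -0.0041 to 0.22 for RPL36AL; under RPL17 siRNA it gave -0.028 to 0.46 for RPL22L1. A fit that leaves out 1 library assumes that the lone library left in a group varies like the others. RPL39L, at about 1 RPKM, is limited by depth.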
